A study of Mus musculus with 12 samples.

Results

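Genes that drive or mark cell division were followed in mouse retina, over 43 members defined by their gene symbol: genes of the G1 phase, of DNA replication and of mitosis, with 3 inhibitors of cyclin-dependent kinases, and without the NDC80 complex. All 43 symbols stood in the count table of 35976 genes. A read was counted for 42 members in at least 1 library, and 24 members had more than 3 reads in every library. The table holds 3' end RNA sequencing of whole retina in 12 libraries, 3 in each of 4 groups. WT normoxia and WT OIR came from C57BL/6 pups of both sexes at postnatal day 15. WT OIR pups went through oxygen-induced retinopathy (OIR), with 75% oxygen from day 7 to day 12 and then 3 days in room air, and the normoxia pups stayed in room air at 21% oxygen. Casp1 KO normoxia and Casp1 KO OIR are labelled as caspase 1 knockout mice kept in normoxia or taken 3 days after OIR. The allele of the knockout, the age of its pups, their oxygen level and the number of animals behind a library are not given in the sources used here, so p-values measure the spread between libraries, which may be partly technical.

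The cell cycle runs through a fixed series of gene programmes. D-type and E-type cyclins with their kinases carry a cell through G1, the MCM helicase and the nucleotide enzymes serve DNA synthesis, and cyclins A and B with CDK1, the Polo and Aurora kinases, the spindle checkpoint and the kinesin motors carry it through mitosis. CDK inhibitors such as p21 and p27 hold cells out of the cycle. Most neurons of the mouse retina have left the cycle by the second week after birth, and in OIR the hypoxic retina grows new vessels, which involves dividing endothelial cells, while microglia and other glia can divide too.

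Casp1 itself was read more in the libraries with the knockout label than in WT. The 6 WT libraries held 7 Casp1 reads in all, and the 6 libraries labelled Casp1 KO held 126. This goes against the labels. Crossed labels, which would turn every direction between genotypes, and a deletion outside the stretch read, for which 3' reads check nothing, cannot be told apart here, so the groups are called libraries labelled Casp1 KO. Total counts lay between 3391203 and 5657873 in 11 libraries and at 22815830 in WT normoxia replicate 2, which nevertheless held reads of no more genes (17975) than replicate 1 of its group (18021). A count of 3 equals 0.131 CPM (each gene's share of the library's counts as CPM, scaled by TMM factors) in that library and 0.885 CPM in the shallowest, and covers counting error only. Rod markers summed to between 33834 and 40982 CPM in the 12 libraries, and all 6 were read in every library, as the retina label says. WT OIR replicate 3 stood apart in the sums of vessel and blood markers and in several members, and its values are given beside the results they touch.

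The promoters of the members are shown because their windows differ by role. Many genes of G2 and mitosis are known to carry CCAAT boxes, bound by NF-Y, and a cell cycle homology region (CHR), which the DREAM complex uses to keep them silent in resting cells. RefSeq windows of 300 bases, 250 before to 50 after the start (GRCm38.p6), were on hand for 34 of the 43 members, in 37 windows. The letters CCAAT on either strand stood in 37.4% of all 32851 windows, in 94.4% of the 18 windows of G2 and mitosis members and in 63.2% of the 19 windows of the other members. The letters TTTGAA of the CHR, again on either strand, stood in 17.9% of all windows, in 77.8% of the G2 and mitosis windows and in 5.26% of the others. The core letters of the hypoxia response element, ACGTG, stood in 29.7% of the 37 member windows against 19.6% of all windows. These motifs do not overlap in the windows printed here. The 250 bases before the start are given 5′ to 3′ for the 3 members with a role in mitosis that rose in WT OIR, with CCAAT boxes (CCAAT or its complement ATTGG) and CHR letters (TTTGAA or TTCAAA) in capitals.
Top2a, chr11:99024190-99024439, minus strand: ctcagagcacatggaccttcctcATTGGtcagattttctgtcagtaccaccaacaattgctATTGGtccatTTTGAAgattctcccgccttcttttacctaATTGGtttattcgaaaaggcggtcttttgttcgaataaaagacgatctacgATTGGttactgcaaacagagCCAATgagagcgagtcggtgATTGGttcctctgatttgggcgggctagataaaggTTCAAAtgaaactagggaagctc
Mki67, chr7:135716380-135716629, minus strand: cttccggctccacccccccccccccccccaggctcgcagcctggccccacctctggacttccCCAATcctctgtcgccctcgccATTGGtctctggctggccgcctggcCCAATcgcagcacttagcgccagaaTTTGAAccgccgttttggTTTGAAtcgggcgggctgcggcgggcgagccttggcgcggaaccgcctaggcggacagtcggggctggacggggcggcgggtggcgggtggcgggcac
Bub1b, chr2:118597961-118598210, plus strand: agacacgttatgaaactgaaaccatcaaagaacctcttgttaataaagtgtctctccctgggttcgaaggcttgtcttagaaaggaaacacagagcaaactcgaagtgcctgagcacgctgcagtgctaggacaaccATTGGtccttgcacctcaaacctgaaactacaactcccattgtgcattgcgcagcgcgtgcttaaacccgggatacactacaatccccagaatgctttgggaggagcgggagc
The Top2a window held 6 CCAAT boxes and 2 CHR matches, the last of which began 23 bases before the start. The Mki67 window held 3 and 2. Bub1b had 1 CCAAT box, and its 1 CHR match began 40 bases after the start, outside the stretch printed. Both Cdkn1a windows held neither motif. Windows for Ccnd1, Ccnd2, Ccne2, Mcm4, Ccna2, Aurkb, Kif20a, Tpx2 and Cdkn1c were not used here.

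Reads were plentiful for the G1 and inhibitor members and scarce for the mitotic ones. All 7 G1 cyclins and kinases, all 3 CDK inhibitors and 7 of 11 replication members had more than 3 reads in every library. This held for 4 of 9 checkpoint, centromere and mitotic exit members, 2 of 7 G2 and mitotic cyclins and kinases and 1 of 4 spindle members. Mki67 and Top2a did not, with as few as 1 and 3 reads in a normoxia library. Kif20a, a kinesin of cytokinesis, had 0 reads in all 12 libraries. Aurkb, the kinase of the chromosomal passenger complex, had 2 reads in WT OIR replicate 2 and 2 and 1 in replicates 2 and 3 of Casp1 KO OIR, and 0 elsewhere. Because the reads come from whole retina, fewer cells of a type and less RNA per cell cannot be told apart.

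In WT retina, 5 of the 42 members tested were higher in OIR and 0 were lower at an adjusted p under 0.05, by edgeR's quasi-likelihood test adjusted over all genes. They were the proliferation marker Mki67, the DNA topoisomerase Top2a, cyclin D2 (Ccnd2), the checkpoint kinase Bub1b and the p21 gene Cdkn1a. Of all 22853 genes tested, 3.88% were called in either direction and 1.58% were called higher. Fitted values of 38 members lay above 0 and of 4 below, with a median log2 change of 0.72, where all genes had a median of 0.04. With Ccnb1 and Cdc20 at the bound that 3 reads in a group allow, and Aurkb left out, the members' median was 0.60. All 3 WT OIR libraries lay above all 3 WT normoxia libraries for 9 members (Mki67, Top2a, Ccnd1, Ccnd2, Cdk2, Ccnb1, Bub1b, Birc5 and Cdkn1a), which 8.53% of all genes tested also did, and below them for Ccne1 (8.16% of all genes). At an unadjusted p under 0.05, 10 members were higher, as were 6.06% of all genes. DESeq2 called 4 of the 37 members it gave an adjusted p, all but Bub1b of the 5, and 4.35% of all genes.

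Top2a relaxes supercoiled DNA and is made from S phase to mitosis. It lies on chromosome 11 from 98992943 to 99024189 on the minus strand of GRCm38, where 2 small nucleolar RNA genes lie inside it. Its level in WT normoxia was 0.533, 2.45 and 0.870 CPM, and in WT OIR it was 21.6, 19.7 and 3.27 CPM. The groups did not overlap, but replicate 3 of WT OIR lay close to the highest control. The log2 change was 3.26 ± 0.45 (SE, n = 3 a group), or 9.56-fold, with an edgeR adjusted p of 3.609e-10. With each library left out in turn it ran from 2.94 to 4.36, the highest without WT normoxia replicate 2.

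Mki67 codes for the Ki-67 protein, which coats chromosomes of dividing cells and is absent from resting ones. It lies on chromosome 7 from 135689784 to 135716361, minus strand. It had 0.355, 2.85 and 0.870 CPM in WT normoxia and 10.3, 11.2 and 4.54 CPM in WT OIR, so the third OIR library was again the lowest and still above every control. This was a log2 change of 2.44 ± 0.55 (SE, n = 3 a group), 5.42-fold, with an edgeR adjusted p of 0.0006779. Leaving out each library gave 2.05 to 3.80, again highest without WT normoxia replicate 2.

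Ccnd2 varied little within both WT groups. Cyclin D2 binds CDK4 and CDK6 in G1, and its gene lies on chromosome 6 from 127125162 to 127152193 on the minus strand, overlapped by 2 antisense genes. WT normoxia libraries held 38.4, 37.8 and 39.6 CPM and WT OIR libraries 100.4, 102.5 and 99.6 CPM. Unlike in Top2a and Mki67, WT OIR replicate 3 lay within 3 CPM of the other 2 libraries. Between the groups the log2 change was 1.38 ± 0.17 (SE, n = 3 a group), 2.60-fold, with an edgeR adjusted p of 1.657e-13.

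Bub1b codes for BubR1, a kinase of the spindle checkpoint that holds anaphase until chromosomes are attached, and lies on chromosome 2 from 118598211 to 118641591 with no gene overlapping it. Its level was 6.04, 1.34 and 5.87 CPM in WT normoxia and 9.06, 10.3 and 13.4 CPM in WT OIR. The low control was the deep replicate 2, with 30 reads of the 22815830, and the highest OIR library was replicate 3, the one that was lowest for Top2a and Mki67. The log2 change was 1.40 ± 0.43 (SE), with an edgeR adjusted p of 0.03499. Without WT normoxia replicate 2 it was 0.87, with an adjusted p of 0.4542, and without replicate 2 or 3 of WT OIR the adjusted p was 0.08811 and 0.1488.

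Cdkn1a codes for p21, which blocks cyclin-dependent kinases and is a main target of p53, and its gene (plus strand) spans 29090976 to 29100727 of chromosome 17. It had 20.4, 16.8 and 12.2 CPM in WT normoxia and 32.8, 36.6 and 31.98 CPM in WT OIR. The groups lay well apart. The log2 change was 1.02 ± 0.24 (SE, n = 3 a group), 2.03-fold, with an edgeR adjusted p of 0.001335.

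**Figure D1:**
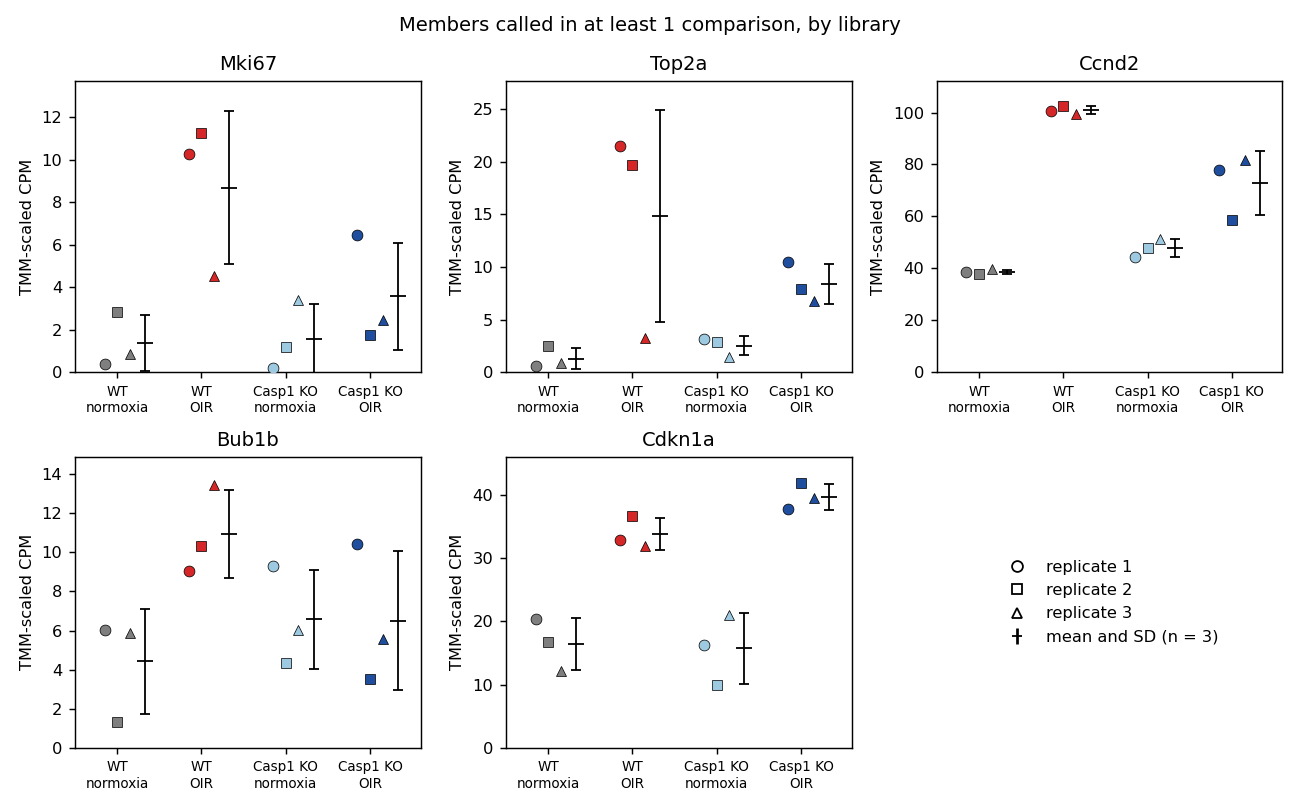
TMM-scaled CPM of the 5 members called in at least 1 comparison, in each of the 12 libraries, with a symbol for each replicate number and the group mean and SD beside them (n = 3; bars that would pass below 0 end at the axis). Ccnd2 and Cdkn1a separate OIR from normoxia under both genotype labels, and WT OIR replicate 3 lies far below replicates 1 and 2 for Top2a and Mki67 (3.27 CPM against 21.6 and 19.7 for Top2a).

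Of the other G1 members, none passed the test in WT. Their log2 changes ran from -0.63 for cyclin E1 (Ccne1), which drives entry into S phase, to 1.07 ± 0.69 (SE) for its partner Cdk2. Cyclin D1 (Ccnd1), the main D cyclin of the developing retina, had a log2 change of 0.48 ± 0.25 (edgeR adjusted p = 0.4147). Summed over the 7 G1 members, the level was 106 ± 7.11 CPM (SD, n = 3) in WT normoxia and 181 ± 3.71 CPM in WT OIR. Cdk4, the kinase partner of the D cyclins, had 0.38 ± 0.26, and cyclin D3 (Ccnd3), with 4 to 67 reads a library, 0.92 ± 0.64. Much of the sum is Ccnd2, whose mean went from 38.6 to 101 CPM.

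None of the 11 members of replication licensing and DNA synthesis passed. Rrm1, the large subunit of ribonucleotide reductase, had the most reads of them, at 22.2, 30.3 and 24.8 CPM in WT normoxia and 29.1, 35.2 and 39.3 CPM in WT OIR. The libraries overlapped, and the log2 change was 0.40 ± 0.22 (SE), with an edgeR adjusted p of 0.4445. Pcna, the sliding clamp of the DNA polymerases, had a log2 change of 0.03 ± 0.30. The MCM helicase subunits ran from -0.05 for Mcm4 to 1.22 ± 0.52 for Mcm3 (edgeR adjusted p = 0.2337), and the thymidylate synthase gene Tyms had 0.18 ± 0.48. The licensing factor Cdc6 and the small reductase subunit Rrm2 had at most 10 reads in a library, with standard errors of 2.27 and 2.18.

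The mitotic cyclins and kinases had few reads, and none of the 7 passed. Plk1, a kinase of centrosomes and mitotic entry, had the most reads, at 7.99, 7.03 and 10.002 CPM in WT normoxia and 11.3, 8.47 and 8.90 CPM in WT OIR, which overlap. Cyclin A2 (Ccna2), which acts in S and G2, had 1.95, 1.96 and 3.04 CPM against 9.06, 8.28 and 2.18 CPM, so only replicates 1 and 2 of WT OIR stood above the controls. Its log2 change was 1.49 ± 0.58 (edgeR adjusted p = 0.159). Cyclin B1 (Ccnb1), the partner of CDK1 at mitotic entry, had 0 reads in each WT normoxia library, the deep one included, and 2, 4 and 3 reads in WT OIR. With so few reads, no fold is given for it. CDK1 itself (Cdk1) had 3, 41 and 2 reads in WT normoxia and 14, 27 and 10 in WT OIR, a log2 change of 1.71 ± 0.85 (edgeR adjusted p = 0.3758). Ccnb2, the other B cyclin, had 0 to 16 reads a library, and the centrosomal kinase Aurka 1 to 40, and their log2 changes were 1.33 ± 1.63 and -0.21 ± 0.998.

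Among checkpoint, centromere and mitotic exit members, Bub1b alone passed. All 9 fitted values lay above 0, and Cenpf, a large kinetochore protein, had 0.16 ± 0.46. The exit activator Cdc20 rested on 1 read in all of WT normoxia and on 3, 10 and 0 reads in WT OIR, so no fold is given for it. The checkpoint kinase Bub1 had 0 to 19 reads a library, the ubiquitin enzyme Ube2c 0 to 22, the passenger protein Cdca8 0 to 13 and the centromeric histone Cenpa 5 to 31. Birc5 codes for survivin, and its log2 change was 2.11 ± 1.03 (edgeR adjusted p = 0.3537) with no overlap between the groups. Cenpe, a motor of the kinetochore, had the most reads of this role, with 27.4, 17.4 and 35.9 CPM in WT normoxia and 40.2, 30.4 and 21.4 CPM in WT OIR, again with replicate 3 lowest. For Cenpe the log2 change was 0.20 ± 0.22 (edgeR adjusted p = 0.7136).

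The spindle members and the other inhibitors did not pass either. Tpx2, which builds spindle microtubules, had 3.37, 1.56 and 3.48 CPM in WT normoxia and 4.16, 4.23 and 1.999 CPM in WT OIR, with a log2 change of 0.33 ± 0.69. The bipolar spindle motor Kif11 had 0 to 60 reads a library and the midzone motor Kif23 0 to 24, with log2 changes of 0.90 ± 0.76 and 2.91 ± 1.501. The p27 gene Cdkn1b, with the most reads of all members, had 152.6, 142.0 and 138.5 CPM in WT normoxia and 137.4, 146.9 and 154.8 CPM in WT OIR. The groups overlapped, with a log2 change of 0.0099 ± 0.14 (SE, n = 3 a group). The p57 gene Cdkn1c had a log2 change of 0.38 ± 0.16 (edgeR adjusted p = 0.206).

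Without WT OIR replicate 3, 6 of 42 members were called in WT, where 5.04% of all genes were called in place of 3.88%. Ccna2 (log2 change 1.92 ± 0.57, edgeR adjusted p = 0.01931) and Mcm3 (1.67, edgeR adjusted p = 0.0258) joined, Bub1b dropped out, and Top2a and Mki67 stood at 3.71 ± 0.43 and 2.74 ± 0.55.

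**Figure D2:**
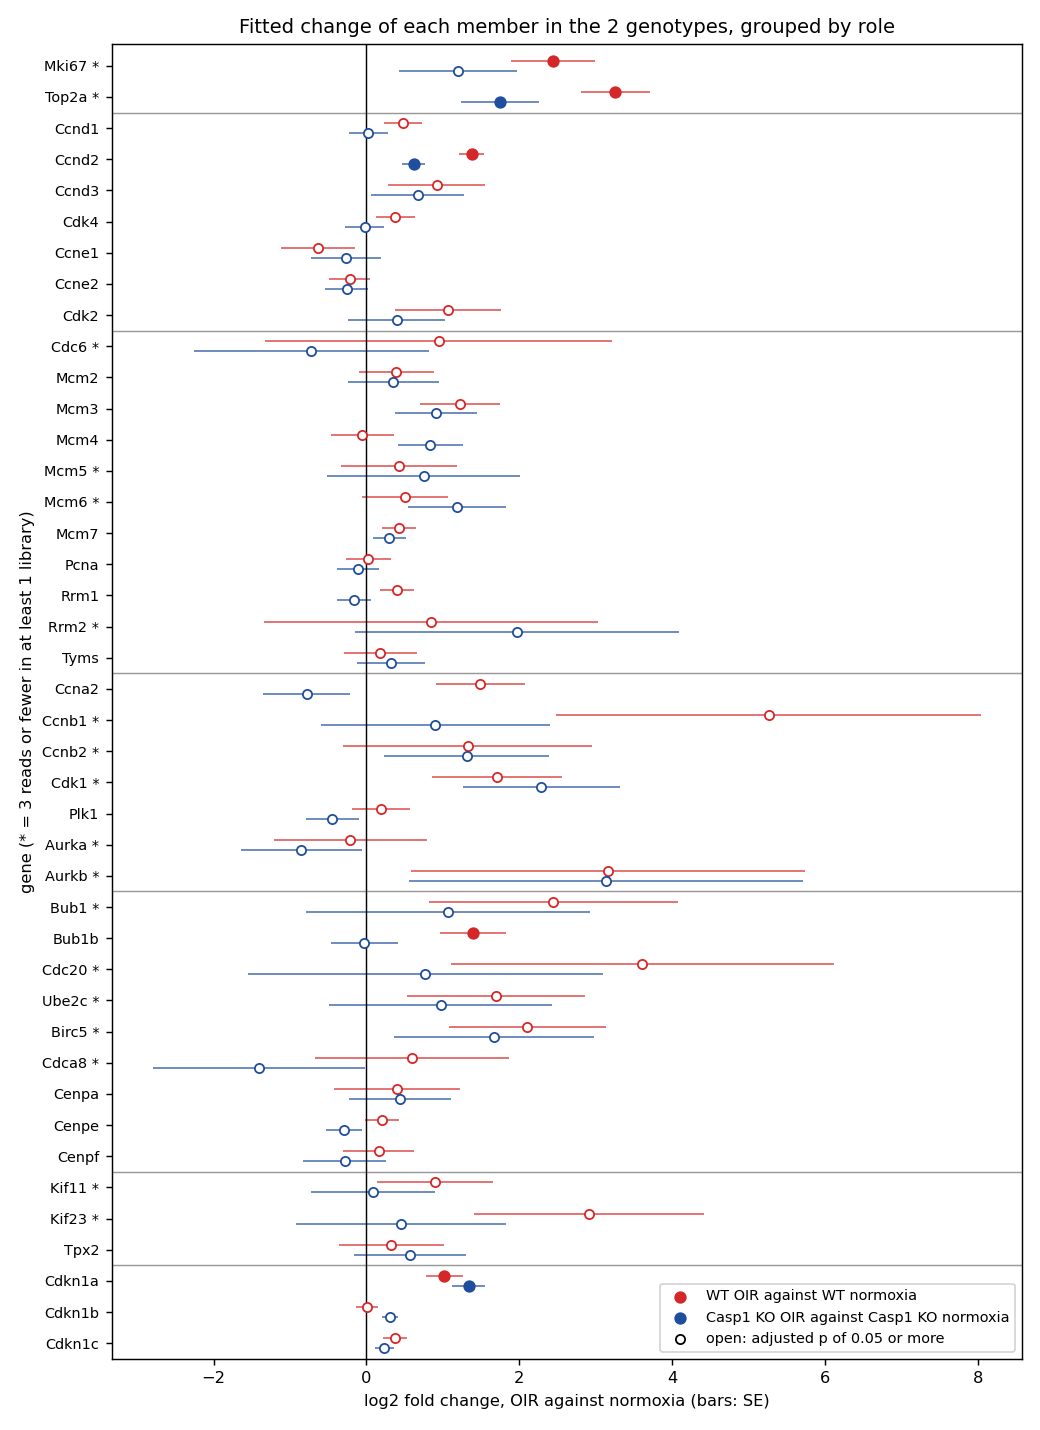
Log2 fold change of OIR against normoxia for the 42 members with reads, in WT (red) and in the libraries labelled Casp1 KO (blue), with bars of 1 SE and filled symbols for an adjusted p under 0.05; lines part the roles and stars mark members with 3 reads or fewer in some library. The 5 filled red and 3 filled blue symbols lie to the right of 0, and the widest bars belong to starred members such as Ccnb1 and Cdc20.

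In the libraries labelled Casp1 KO, 3 of 42 members were higher in OIR and 0 were lower: Top2a, Ccnd2 and Cdkn1a. Of all 22387 genes tested, 4.64% were called in either direction and 2.61% were called higher. Fitted values lay above 0 for 29 members and below for 13, with a median log2 change of 0.42 beside -0.002 over all genes, or 0.37 with Rrm2 at its bound and Aurkb and Cdc20 left out. The groups did not overlap for 7 members (Top2a, Ccnd2, Mcm3, Cdk1, Birc5, Cdkn1a and Cdkn1b), all higher in OIR, as for 8.56% of all genes tested. At an unadjusted p under 0.05, 5 members were higher, as were 7.27% of all genes, and DESeq2 called the same 3 among the 30 it gave an adjusted p and 6.03% of all genes.

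Cdkn1a had the smallest p of the members here. It held 16.2, 9.88 and 21.01 CPM in Casp1 KO normoxia and 37.8, 41.8 and 39.5 CPM in Casp1 KO OIR, so the lowest OIR library lay well above the highest control. This gave a log2 change of 1.34 ± 0.22 (SE, n = 3 a group), 2.53-fold, with an edgeR adjusted p of 1.576e-07.

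Ccnd2 went from 44.3, 47.9 and 51.2 CPM to 78.0, 58.7 and 81.7 CPM, without overlap but with a wider spread in OIR than in WT. The log2 change was 0.62 ± 0.15 (SE), 1.54-fold, with an edgeR adjusted p of 0.001774. Without Casp1 KO OIR replicate 3 the adjusted p was 0.05501.

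Top2a had 3.10, 2.90 and 1.45 CPM in Casp1 KO normoxia and 10.5, 7.88 and 6.79 CPM in Casp1 KO OIR. All 3 OIR libraries lay above the controls. The log2 change was 1.75 ± 0.51 (SE), 3.36-fold, with an edgeR adjusted p of 0.0178, and the adjusted p was 0.1307 without Casp1 KO OIR replicate 1 and 0.1164 without Casp1 KO normoxia replicate 3.

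Mki67 and Bub1b did not pass in these libraries. Mki67 had 0.182, 1.16 and 3.38 CPM in Casp1 KO normoxia and 6.45, 1.75 and 2.47 CPM in Casp1 KO OIR. The groups overlapped, and its log2 change was 1.20 ± 0.77 (edgeR adjusted p = 0.5246). Bub1b had 9.30, 4.36 and 6.04 CPM and then 10.5, 3.50 and 5.55 CPM, which overlap, with a log2 change of -0.025 ± 0.43.

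The members with the most reads in the other roles did not pass under the knockout label. Rrm1 had 22.4, 28.5 and 31.6 CPM in Casp1 KO normoxia and 21.6, 23.7 and 27.6 CPM in Casp1 KO OIR, with a log2 change of -0.16 ± 0.22. Plk1 had 17.1, 5.52 and 11.6 CPM and then 5.56, 9.64 and 10.1 CPM, a log2 change of -0.45 ± 0.35. Cenpe had 24.4, 21.2 and 27.8 CPM and then 21.3, 15.5 and 22.6 CPM, a log2 change of -0.29 ± 0.24, and these 3 pairs of groups overlap. Tpx2 had 1.28, 3.20 and 2.17 CPM and then 3.78, 1.75 and 4.11 CPM, which overlap too. Cdkn1b was at 132.4, 116.2 and 134.3 CPM in Casp1 KO normoxia and at 161.0, 156.8 and 151.6 CPM in OIR. Those groups did not overlap, yet the log2 change of 0.30 ± 0.11 (SE) missed the threshold, with an edgeR adjusted p of 0.07676.

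Summed by role, the D and E cyclins with their kinases went from 116 ± 12.5 CPM (SD, n = 3) in Casp1 KO normoxia to 139 ± 14.3 CPM in OIR, and the replication members from 90.3 ± 12.5 to 103 ± 3.83 CPM. In WT the replication members summed to 91.8 ± 2.64 CPM in normoxia and 118 ± 15.9 CPM in OIR. The G2 and mitotic cyclins and kinases summed to 13.6 ± 1.70 and 22.6 ± 4.48 CPM in WT and to 21.9 ± 4.49 and 19.5 ± 2.32 CPM under the knockout label. The 3 CDK inhibitors summed to 232 ± 5.61 and 273 ± 27.2 CPM in WT and to 226 ± 4.47 and 293 ± 5.96 CPM under the knockout label, the largest sum of any role.

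**Figure D3:**
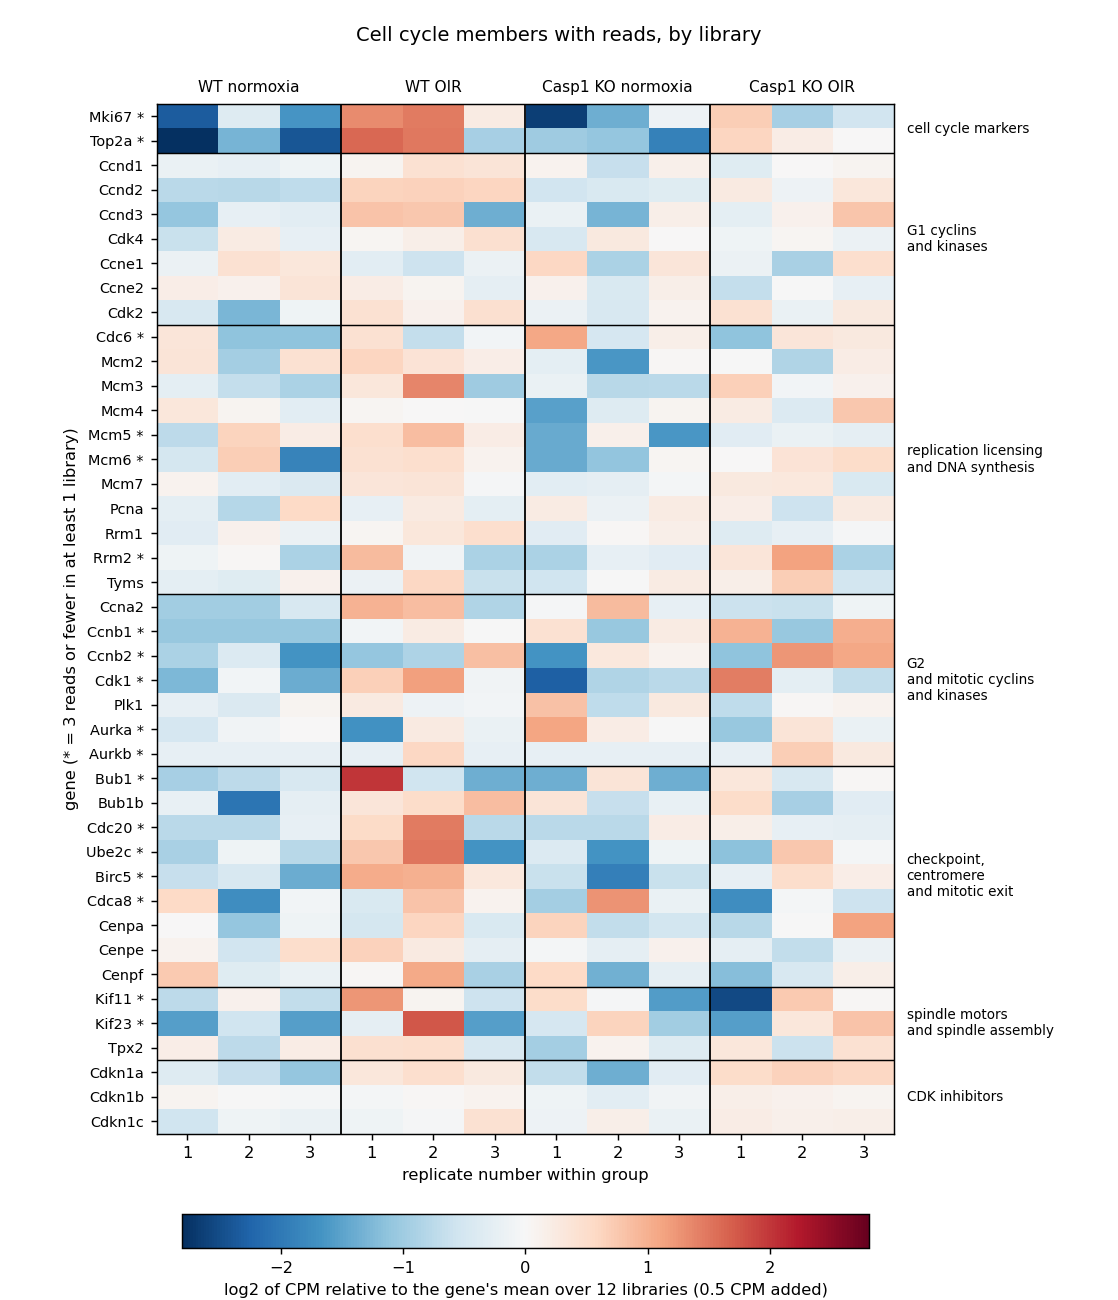
Level of the 42 members with reads in each of the 12 libraries, as the log2 of CPM over the gene's mean of 12 libraries with 0.5 CPM added to both; rows are grouped by role and stars mark members with 3 reads or fewer in some library. Top2a and Mki67 are highest in replicates 1 and 2 of WT OIR, and Ccnd2 and Cdkn1a are higher in all 6 OIR libraries than in all 6 normoxia libraries.

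Between the genotype labels, no member passed. In normoxia 0 of 41 members were called (1.04% of all 22480 genes tested were), 1 had an unadjusted p under 0.05 (8.63% of all genes did), and DESeq2 called 0 of 36 (2.71% of all genes). That 1 member was Ccna2, at 4.19, 8.42 and 3.62 CPM in Casp1 KO normoxia, with a log2 difference from WT of 1.24 ± 0.62 (edgeR adjusted p = 0.5698). The log2 difference was -0.060 ± 0.27 for Cdkn1a and 0.31 ± 0.17 for Ccnd2, and less precise for Mki67, at 0.11 ± 0.98.

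In OIR 0 of 42 members were called (0.575% of all 22774 genes tested were), 6 had an unadjusted p under 0.05, all lower in Casp1 KO OIR, where 4.45% of all genes were lower by that rule, and DESeq2 called 0 of the 4 it gave an adjusted p (1.48% of all genes). These 6 were Mki67, Top2a, Ccnd2, Rrm1, Ccna2 and Cenpe. The difference in log2 was -1.28 ± 0.48 for Mki67, -0.81 ± 0.34 for Top2a and -0.47 ± 0.16 for Ccnd2 (edgeR adjusted p = 0.2821, 0.4073 and 0.1833). WT OIR replicate 3 bears on this comparison. Without it, 3 members were called lower in Casp1 KO OIR, Mki67 at -1.58 ± 0.47, Top2a at -1.28 ± 0.33 and Cenpe at -0.81 ± 0.24 (edgeR adjusted p = 0.02477, 0.005978 and 0.02929), and 3.65% of all genes were called in place of 0.575%. Such a fit leaves WT OIR with 2 libraries.

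The test of whether the response to OIR differed between genotype labels called 1 of 42 members, Ccnd2, where it called 1.13% of 24484 genes in either direction and 0.527% as lower under the knockout label. The interaction was -0.78 ± 0.22 on the log2 scale, with a smaller rise in the libraries labelled Casp1 KO (edgeR adjusted p = 0.04469), where the change was 1.54-fold beside 2.60-fold in WT. DESeq2 gave an adjusted p of 0.02821, with 1 of 36 members and 1.5% of all genes called. The call was lost with filterByExpr as the filter (adjusted p = 0.05805) and in 10 of 12 fits that left out 1 library, with adjusted p up to 0.2617. The interaction was -1.54 ± 0.68 for Top2a, -1.27 ± 0.91 for Mki67, -1.45 ± 0.62 for Bub1b and 0.29 ± 0.32 for Cdkn1a (edgeR adjusted p = 0.4013, 0.7258, 0.3726 and 0.9202), so a difference for these was not shown.

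WT OIR replicate 3 differed from the other WT OIR libraries, in a way that varied with role and gene. Mki67 and Top2a summed to 31.8 and 30.9 CPM in replicates 1 and 2 and to 7.81 CPM in replicate 3, and the 4 spindle members to 11.3, 11.2 and 3.45 CPM. Checkpoint, centromere and mitotic exit members summed to 68.1, 68.5 and 42.3 CPM, and G2 and mitotic cyclins and kinases to 24.7, 25.6 and 17.4 CPM. Yet Bub1b was highest in replicate 3, at 13.4 CPM, as was the sum of the CDK inhibitors (249, 268 and 303 CPM). The sum of the G1 members, largely Ccnd2, was 179, 185 and 179 CPM. Among them Ccnd3 was low in replicate 3 (6.61, 6.44 and 1.09 CPM), as was Ccne2 (20.3, 18.8 and 14.7 CPM), while Cdk4 was highest there (20.1, 21.9 and 26.7 CPM). Summed markers of several cell types were also lowest in replicate 3 among the WT OIR libraries. The 10 endothelial markers summed to 200.1, 218 and 137 CPM in WT OIR against 127 to 145 CPM in WT normoxia, with 9 read in every library and Tek at 0 in 1. The 6 pericyte and smooth muscle markers summed to 156, 191 and 94.1 CPM against 94.4 to 125 CPM, with Tagln at 0 throughout. Of the 5 tested, 1 was called higher in OIR (1.58% of all genes were) and 2 lay higher without overlap (8.53% of all genes did). Fitted values of 3 lay above 0 and of 2 below. The 5 red blood cell markers summed to 277, 397 and 90.9 CPM against 121 to 146 CPM, with Alas2 at 0 in 1 library. Taken singly, 4 of these 5 were called higher in OIR (1.58% of all genes were). For 3 of the 5 every WT OIR library, replicate 3 included, lay above every control, as for 8.53% of all genes. The 7 lens markers summed to 495, 393 and 227 CPM against 389 to 449 CPM, with Mip at 0 in 10 of the 12 libraries. The part of these cells in the low Top2a and Mki67 of replicate 3 was not tested.

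Under the knockout label the sums of vessel markers were closer together. Endothelial markers summed to 139 to 153 CPM in Casp1 KO normoxia and 152 to 188 CPM in OIR, pericyte markers to 129.9 to 147 and 109 to 139 CPM, and red blood cell markers to 150.5 to 155 and 129 to 167 CPM. Of the 5 pericyte markers tested there, 1 was called higher in OIR, with a log2 change of 1.92 (2.61% of all genes were called higher). Fitted values of the other 4 lay below 0. The 10 microglia and macrophage markers summed higher in OIR under both labels, at 98.2 to 108 against 61.3 to 74.9 CPM in WT and at 92.7 to 113 against 55.4 to 65.7 CPM under the knockout label, with Aif1 at 0 in 1 library. Their part in the rise of Ccnd2 and Cdkn1a was not tested. The 8 retinal progenitor markers summed to 94.5 to 103 CPM in WT OIR and 102 to 132 CPM in WT normoxia, but to 109 to 115 CPM in Casp1 KO OIR and 80.04 to 91.5 CPM in Casp1 KO normoxia, without overlap. Of these 8, 2 were called higher in OIR under the knockout label (2.61% of all genes were) and 1 lower in WT (524 of 22853 genes were). Fitted values lay above 0 for 3 of the 8 and below for 5 under the knockout label, with a median log2 change of -0.51. In WT they lay above 0 for 2 and below for 6, with a median of -0.23. Fgf15 was at 0 in 8 libraries. The 5 oligodendrocyte precursor markers stayed between 17.6 and 33.1 CPM in all 12 libraries, with Olig2 at 0 in 8 and Olig1 at 0 in 4. The 8 Muller glia markers summed to 2818 to 2968 CPM in WT normoxia, 2355 to 2454 in WT OIR, 2026 to 2188 in Casp1 KO normoxia and 3056 to 3237 in Casp1 KO OIR. Lens markers summed to 364 to 379 CPM in Casp1 KO normoxia and to 616 to 709 CPM in Casp1 KO OIR.

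**Figure D4:**
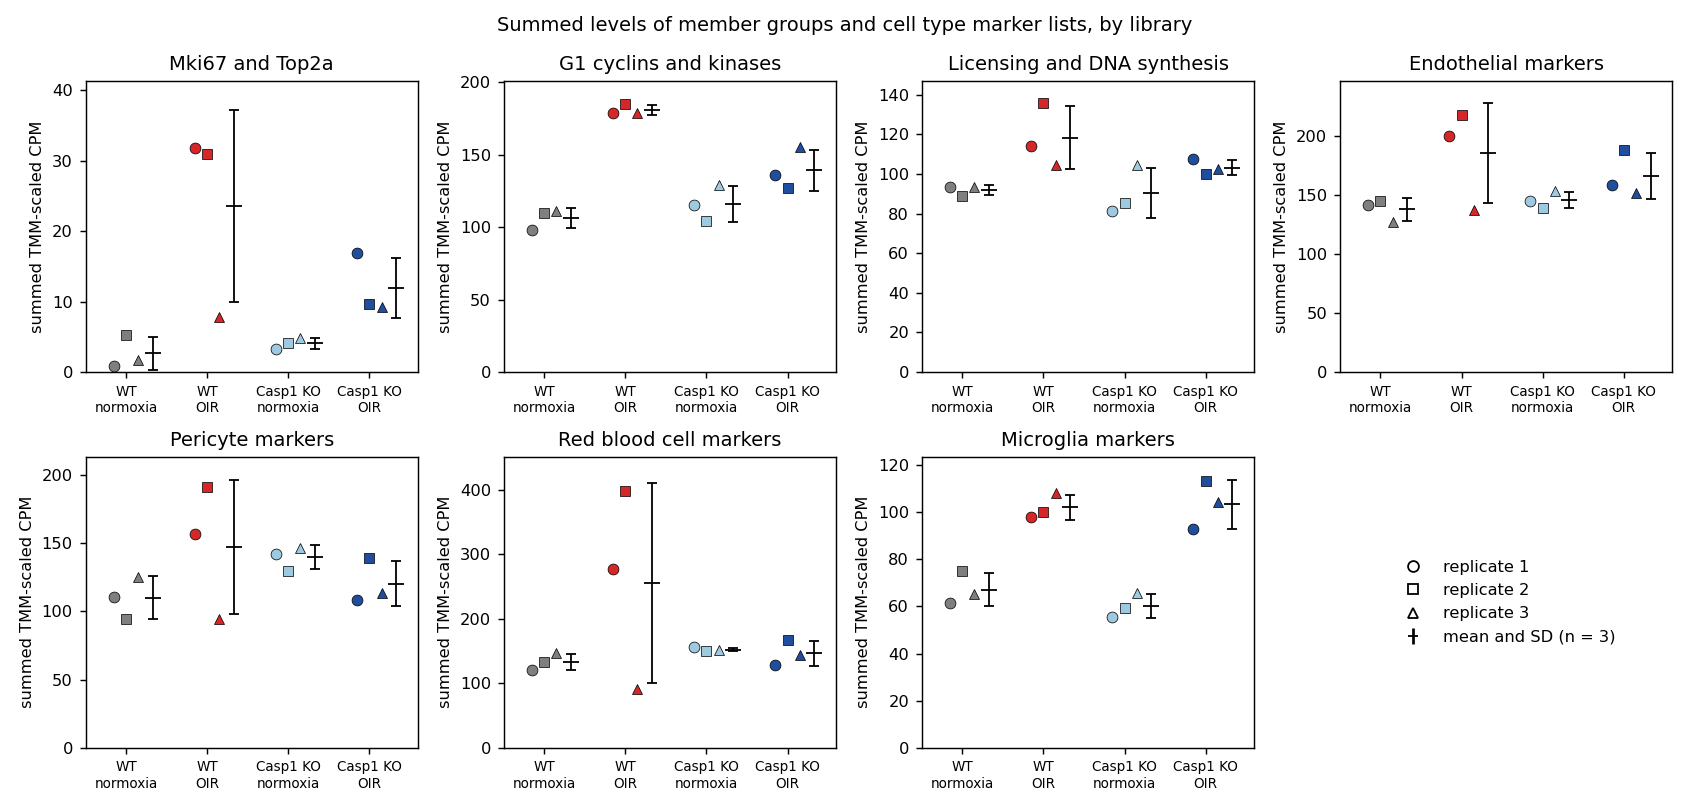
Summed TMM-scaled CPM in each library for Mki67 with Top2a, for the 7 G1 members, for the 11 replication members and for marker lists of endothelial cells, pericytes, red blood cells and microglia, with the group mean and SD (n = 3). WT OIR replicate 3 (triangle) is low for Mki67 with Top2a (7.81 CPM), endothelial (137 CPM) and red blood cell markers (90.9 CPM), but not for the sum of the G1 members (179 CPM), which is largely Ccnd2, or for microglia.

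The rest of the cell cycle was read from lists of 38 other G1 and S phase genes, 40 other G2 and M phase genes and 18 targets of p53. In WT, 3 of 38 tested G2 and M phase genes were called higher in OIR, as were 1.58% of all genes. They were Racgap1, the GTPase-activating partner of the midzone kinesin Kif23, and Prc1, which bundles microtubules at the spindle midzone. The third was Pttg1, the securin that guards sister chromatids. Racgap1 had 7.81, 5.30 and 7.61 CPM in WT normoxia and 16.2, 15.5 and 36.7 CPM in WT OIR, with replicate 3 highest, and a log2 change of 1.75 ± 0.31 (edgeR adjusted p = 3.522e-06). Prc1 had 9, 29 and 7 reads and then 27, 57 and 23 reads, a log2 change of 2.27 ± 0.61 (edgeR adjusted p = 0.009091), and Pttg1 a log2 change of 0.61 ± 0.19 (edgeR adjusted p = 0.03974). DESeq2 called 2 of these 3 and not Pttg1, with an adjusted p of 0.0903. None of the 38 G1 and S phase genes passed, DESeq2 called 0 of 30, and 4 had an unadjusted p under 0.05, all higher. By that rule 6.06% of all genes were higher. The median log2 change was 0.40 over the G1 and S phase genes and 0.69 over the G2 and M phase genes in WT, and 0.082 and 0.25 under the knockout label. In the libraries labelled Casp1 KO, 1 of 40 G2 and M phase genes was called higher in OIR, as were 2.61% of all genes. This was Prc1 again, at 3, 1 and 5 reads in normoxia and 30, 22 and 21 in OIR (log2 change 2.90 ± 0.77, edgeR adjusted p = 0.006768). Of 38 G1 and S phase genes 1 was called lower, as were 454 of all 22387 genes. It was Cdkn2d, an inhibitor of the D cyclin kinases, with a log2 change of -0.61 ± 0.19 (edgeR adjusted p = 0.03476, DESeq2 adjusted p = 0.05568). Between the labels in OIR, 1 of 40 G2 and M phase genes was called, where 0.575% of all genes were. This was the cytokinesis motor Kif20b, lower in Casp1 KO OIR, at 7.56, 6.57 and 11.3 CPM against 15.4, 29.5 and 19.99 CPM (log2 difference -1.35 ± 0.31, edgeR adjusted p = 0.004022). No gene of these lists passed between the labels in normoxia, where 5 of 35 tested G1 and S phase genes, 3 of 40 G2 and M phase genes and 0 of 18 p53 targets had an unadjusted p under 0.05 beside the 8.63% of all genes, and DESeq2 called 0. In the interaction none passed either, with 5 of 38, 5 of 40 and 1 of 18 at an unadjusted p under 0.05, where 9.77% of all genes were, and 0 called by DESeq2.

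Of the 18 other p53 targets, 0 passed in either OIR comparison, with 3 and 0 at an unadjusted p under 0.05 and 0 called by DESeq2 in both. Over all genes, 2877 of 22853 in WT and 3045 of 22387 under the knockout label had an unadjusted p under 0.05. The median log2 change of the 18 targets was 0.14 in WT and 0.17 under the knockout label, where Cdkn1a stood at 1.02 and 1.34.

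Counts of 11 members can include reads of a protein coding gene that overlaps them on the other strand, since the strand setting of the counting is not given in the sources used here. These are Ccnd1, Ccnd3, Cdk4, Ccne2, Cdk2, Mcm7, Ccna2, Cdc20, Ube2c, Cdca8 and Kif20a. No member is overlapped by a protein coding gene on its own strand in GENCODE vM21, and of the 5 members called, none is among the 11. Genes of other types do overlap Mki67, Top2a, Ccnd2 and Cdkn1a on the other strand, and no gene overlaps Bub1b.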

How the data were processed

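Whole retina was measured in 12 libraries of 4 groups, taken from the labels of the samples. According to the submitters' processing notes, the authors aligned 75-base reads with STAR 2.7.5a to mm10 and counted them with HTSeq 0.6.1, and the deposited values are raw counts per gene symbol. The annotation and strand setting are not given in the sources used here. The members and lists were chosen with earlier results of these data known.

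Counts were fitted in R 4.3.3 with edgeR 4.0.16 (TMM, genes with at least 1 count, glmQLFit and glmQLFTest, prior count 0.125, Benjamini-Hochberg over all genes, threshold 0.05). Pairwise fits used the 6 libraries compared, and the interaction used all 12. SE is the log2 change over the root of F. Alternatives were DESeq2 1.42.0, other scalings and filters, a replicate block, all libraries in 1 fit and each library left out. Calls of the WT comparison and of the interaction were tested on simulated counts.

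Values per library are given for Mki67, Top2a, Cdkn1a, each member called and the member with the most reads per role, and for up to 3 called genes each way of the other lists. Library totals ran from 3391203 to 22815830. Libraries with the same replicate number correlated by -0.028 to 0.035 in their deviations from group means. No pairing by number was seen across genes, though a link in few genes could be missed. Positions are from GENCODE vM21, promoters from RefSeq.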

Additional observations from a re-analysis of the deposited data

Results flagged for a closer look

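The response of Ccnd2 to OIR differed between the genotype labels by a test of the difference itself: the interaction was -0.78 on the log2 scale, with a log2 change of 1.38 ± 0.17 in WT and 0.62 ± 0.15 in the libraries labelled Casp1 KO (SE, n = 3 a group). The adjusted p of 0.04469 rose past the threshold in 11 of 18 alternatives, 10 of them with 1 library left out, and reached 0.2617. Casp1 reads go against the labels, so crossed labels were not excluded, and WT and knockout animals may also differ in age and oxygen level, which the sources used here do not give for the knockout, so genotype and these conditions cannot be told apart.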

How the results depend on the processing

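Of 466 alternative values of named members, 430 kept their direction and side of the threshold, 20 lost the call, 2 gained it and 14 changed sign, none of which had been called. With at least 10 counts in every library, 2 of 22 members tested were called in WT, where 5.16% of all genes were. Top2a and Mki67 were then not tested, and Bub1b was tested and lost its call (adjusted p = 0.1004). With filterByExpr the interaction called 0 members and 0.973% of all genes. With a library left out, members called ran from 4 to 6 in WT, where 2.43% to 5.04% of all genes were called. Under the knockout label they ran from 2 to 3 (3.23% to 3.96% of all genes). Between labels in OIR they ran from 0 to 3 (0.213% to 3.65% of all genes), the 3 coming without WT OIR replicate 3. In the interaction they ran from 0 to 2 (0.72% to 2.46% of all genes). Values that changed sign with a library left out ran from -0.056 to 0.46 for Cenpe and from -0.031 to 0.051 for Cdkn1b in WT, from -0.55 to 0.32 for Bub1b under the knockout label, from -1.15 to 1.33 for Mki67 and from -0.31 to 0.17 for Cdkn1a between labels in normoxia, and from -2.59 to 0.053 for the interaction of Mki67. In 1 fit of all 12 libraries the value for Mki67 in normoxia was -0.012. The cause was not tested. The replicate block changed no call of a member: 5 and 3 members were called in the OIR comparisons, 0 and 0 between labels and 1 in the interaction. Of all genes the block fit called 3.47% in WT and 4.59% under the knockout label. Between labels it called 0.845% in normoxia and 0.562% in OIR, and in the interaction 1.18%. Of 12 pairs of libraries with the same number, 0 correlated over 0.1, though a link in few genes could be missed. Over all genes, filterByExpr called 586 in place of 886 in WT, 16 in place of 131 between labels in OIR and 139 in place of 277 in the interaction. At least 10 counts gave 17 and 152 for the last pair. DESeq2 called 444 in place of 233 in normoxia and 82 in place of 131 in OIR. The fit of all libraries called 642 in place of 1038 under the knockout label, 109 in normoxia and 255 in OIR. With a library left out the lowest counts were 545, 704, 128, 47 and 174 and the highest 1130, 866, 199, 815 and 597. Depth limits the mitotic members most, with standard errors over 1 for those with few reads.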
